A study of Mus musculus and Homo sapiens with 8 samples.

Results

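Glycolysis and the hypoxia response were followed through 36 genes in 2 RNA sequencing experiments on the loss of ANP32B, an acidic nuclear phosphoprotein. The members were chosen by name, with earlier results of these data known. They were 17 enzymes of the pathway from glucose to lactate, 2 glucose transporters and 3 regulators of glycolytic flux. With them stood 9 targets of hypoxia-inducible factor (HIF) with other functions, and 5 genes of oxygen sensing and HIF itself. All 36 were among the 20296 genes listed for the human experiment, and 34 were among the 17097 listed for the mouse experiment. There Gpi1 stood for GPI, and Adm and Ndufa4l2 were absent from the genes listed. The human cells were KU812, an established chronic myelogenous leukemia line with basophil features, with either a control hairpin (shNC, n = 2) or a short hairpin RNA aimed at ANP32B (shANP32B, n = 2). It is 1 cell line, and the labels give 1 name, shANP32B, without saying whether it stands for 1 hairpin or several. The mouse cells were LSK cells of bone marrow from C57BL/6 animals, lineage-negative cells that carry Sca-1 and c-Kit and include hematopoietic stem cells, either wild type (WT, n = 2) or with a knockout of Anp32b (KO, n = 2). The sources used here do not give the age of the animals or which part of the gene was deleted. Nothing in the labels says whether replicates were separate cultures or animals, so a p-value here sets a difference against library spread alone, and that spread may be technical.

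Library totals lay between 24416691 and 28209409 counts in KU812 cells and between 10549358 and 15683480 in LSK cells. Among replicate pairs the WT libraries differed most, with a chi-square per degree of freedom of 47.7 over genes, against 19.6 in shNC, 9.74 in shANP32B and 7.70 in KO. Levels are given as CPM, each library's counts on a common scale of depth and composition that does not correct for gene length. ANP32B itself stood at 268 ± 25.1 CPM in shNC and 39.3 ± 1.55 CPM in shANP32B, and Anp32b at 762 ± 44.9 CPM in WT against 225 ± 33.6 CPM in KO (mean ± SD of 2 libraries), the latter difference not passing the test over all genes (adjusted p = 0.148). Basophil and mast cell markers were read in KU812 (11 of 11 listed, summed level 6397 and 5810.2 CPM in shNC against 6038 and 6099 CPM in shANP32B, with 3 of the 11 lower and 3 higher), and stem and progenitor markers in LSK cells (11 of 11 listed, 2285 and 2049.5 CPM in WT against 2301 and 2197 CPM in KO). In KU812 the erythroid markers (8 of 8 listed) summed to 3887 and 4491 CPM in shNC against 2836 and 3029.7 CPM in shANP32B, with 4 of the 8 lower, and the list of fibroblast and epithelial markers (4 of 5 listed, mainly EPCAM and KRT18; COL1A2 was not listed) to 137 and 139.9 CPM in shNC against 65.4 and 67.5 CPM in shANP32B, with 2 of the 4 lower and 1 higher. The part of these shifts in the results on KU812 was not tested.

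Glycolysis splits glucose into pyruvate and yields ATP without oxygen, and lactate dehydrogenase turns the pyruvate into lactate. HIF is a pair of proteins whose alpha subunit is hydroxylated by the EGLN prolyl hydroxylases when oxygen is present and is then handed to VHL for destruction. When oxygen is short the alpha subunit persists and raises transcription of glucose transporters, most glycolytic enzymes and genes of blood vessel growth, mitophagy and collagen hydroxylation. Hematopoietic stem cells of the marrow are known for relying on glycolysis, and leukemic lines in culture for high glucose use.

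HIF binds DNA at the short core ACGTG or GCGTG. The 250 bases before the transcription start were searched for both cores on both strands in the mouse promoters of RefSeq (GRCm38.p6), since promoters of the human genes were not used here. A palindrome such as CACGTG counts as a match on each strand, so that 5 matches can lie at fewer sites. At least 1 core was found in 35 of 47 windows of 31 members (74.5%), against 38.6% of all 32851 windows, and ACGTG alone in 40.4% against 16.6%. Windows of a gene can overlap and count the same core again, as in Aldoa. By gene, 27 of 31 members held a core in a window, against 11226 of 27025 genes. The members include genes listed as HIF targets, and windows were not matched for base composition. A core was present in 75.9% of the 29 windows of members whose human counterpart fell in KU812 and in 72.2% of the 18 windows of the other members. The windows of 4 members that fell in KU812 follow, the first 3 because they held many cores and the last because it held none, chosen after the matches were seen. They are the windows of Ldha (chr7:46845554-46845803, plus strand, 5 matches), which makes lactate, of the mitophagy gene Bnip3 (chr7:138909507-138909756, minus strand, 5 matches), of the collagen hydroxylase gene P4ha1 (chr10:59323046-59323295, plus strand, 3 matches) and of Gpi1 (chr7:34230337-34230586, minus strand, 0 matches), the second enzyme of glycolysis. Capitals mark the cores on either strand, and a match says only that these letters are present.
Ldha: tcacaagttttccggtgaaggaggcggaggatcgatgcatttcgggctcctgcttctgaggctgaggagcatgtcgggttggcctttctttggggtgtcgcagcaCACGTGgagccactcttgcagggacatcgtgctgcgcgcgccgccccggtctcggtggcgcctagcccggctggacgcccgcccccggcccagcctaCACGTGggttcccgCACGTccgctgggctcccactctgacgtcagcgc
Bnip3: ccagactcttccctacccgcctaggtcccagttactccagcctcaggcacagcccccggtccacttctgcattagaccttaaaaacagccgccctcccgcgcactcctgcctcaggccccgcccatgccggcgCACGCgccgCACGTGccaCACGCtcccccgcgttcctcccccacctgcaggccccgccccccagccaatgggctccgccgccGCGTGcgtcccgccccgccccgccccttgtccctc
P4ha1: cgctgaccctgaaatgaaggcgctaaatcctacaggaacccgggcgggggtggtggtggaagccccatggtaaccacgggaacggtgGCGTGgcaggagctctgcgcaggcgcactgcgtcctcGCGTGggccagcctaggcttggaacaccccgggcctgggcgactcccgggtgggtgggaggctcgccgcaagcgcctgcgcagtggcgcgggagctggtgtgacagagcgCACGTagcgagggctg
Gpi1: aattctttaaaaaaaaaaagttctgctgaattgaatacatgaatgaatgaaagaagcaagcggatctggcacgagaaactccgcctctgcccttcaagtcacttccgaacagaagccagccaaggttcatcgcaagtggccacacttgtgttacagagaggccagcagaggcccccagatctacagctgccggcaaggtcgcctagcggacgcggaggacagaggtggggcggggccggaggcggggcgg

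The KU812 comparison asks which genes of this module differ when ANP32B is knocked down in a leukemic line. Most of the module was lower. With edgeR's quasi-likelihood test and a threshold of 0.05 on the adjusted p, 23 of the 36 members fell and 1 rose, where 9.06% of all 16529 genes tested fell and 7.53% rose. A fall of at least 2-fold was called in 10 members, against 2.21% of all genes. At an unadjusted p under 0.05 the counts were 26 lower and 1 higher, against 15.9% and 14.7% of all genes. Both shANP32B libraries lay below both shNC libraries in 28 members and above them in 1, against 28.9% and 29.5% of all genes. The median log2 fold change was -0.66 over the members and 0.0041 over all genes tested. The members were chosen with earlier results of these data known, so their excess over all genes is not an independent test. Scaling by library totals alone gave 21 members lower and 1 higher, and a split of 1182 genes lower and 1474 higher over all genes, against 1497 and 1244 with composition scaling. These are bulk samples, in which fewer cells expressing a gene and less RNA per cell cannot be told apart.

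**Figure D1:**
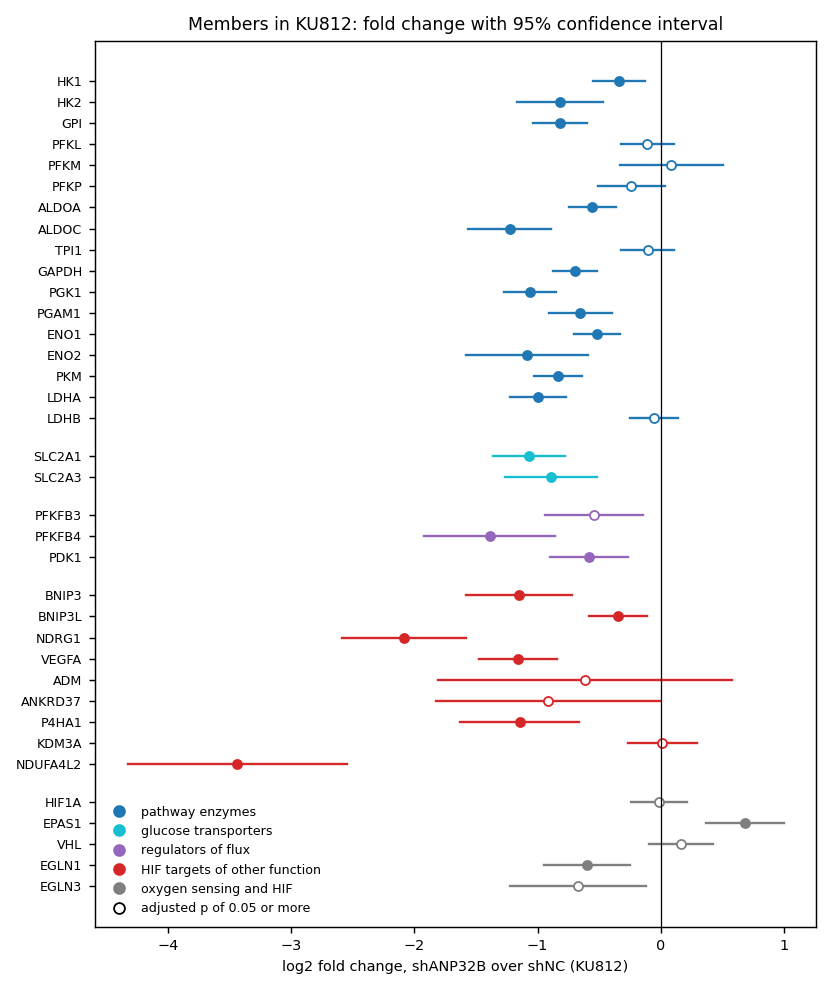
Log2 fold change of each of the 36 members in KU812 cells, shANP32B over shNC (x axis), with its 95% confidence interval as a line, from the edgeR fit of 2 against 2 libraries. Filled points had an adjusted p under 0.05. The enzymes lie mostly between -0.34 and -1.23, NDRG1 and NDUFA4L2 farthest to the left, and EPAS1 is the filled point to the right of 0.

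Glucose enters the cell through the transporters SLC2A1 (GLUT1) and SLC2A3 (GLUT3), and both fell. SLC2A1 was read at 336 and 255 CPM in shNC against 151 and 130.3 CPM in shANP32B, log2 fold change -1.07 ± 0.13 (SE), adjusted p = 1.95e-04. SLC2A3 was read at 438 and 265 CPM in shNC against 182 and 198 CPM in shANP32B, log2 fold change -0.89 ± 0.17 (SE), adjusted p = 0.00378. In both genes both shANP32B libraries lay below both shNC libraries, as in 28.9% of all genes tested, and shNC 1 lay above shNC 2. The call for SLC2A3 was lost with DESeq2 (adjusted p = 0.0654).

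The hexokinases trap glucose as glucose-6-phosphate. HK2, the form induced in many tumors and by HIF, was read at 185 and 122 CPM in shNC against 91.4 and 82.6 CPM in shANP32B, log2 fold change -0.82 ± 0.16 (SE), adjusted p = 0.00421. HK1, the housekeeping form, was read at 464 and 495 CPM in shNC against 388 and 369 CPM in shANP32B and fell by 0.34 on the log2 scale (adjusted p = 0.0295). The HK1 call did not survive leaving out either shANP32B library (adjusted p = 0.116 without the first and 0.239 without the second) or scaling by library totals (adjusted p = 0.0521). The next enzyme, GPI, which makes fructose-6-phosphate, was read at 869 and 768 CPM in shNC against 485 and 442 CPM in shANP32B, log2 fold change -0.82 ± 0.10 (SE), adjusted p = 1.66e-04.

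None of the 3 subunit genes of phosphofructokinase, the committed step, passed the test. PFKL, the liver-type subunit, was read at 376 and 409 CPM in shNC against 372 and 356 CPM in shANP32B, log2 fold change -0.11 ± 0.10 (SE), adjusted p = 0.507. The muscle-type subunit gene PFKM was read at 17.3 and 13 CPM in shNC against 16.3 and 15.9 CPM in shANP32B, and the platelet-type PFKP at 187 and 147 CPM in shNC against 147 and 136 CPM in shANP32B. Their log2 fold changes were 0.086 (95% interval -0.33 to 0.50) and -0.24 (95% interval -0.51 to 0.034), and PFKM turned to -0.11 without shNC 2. PFKP lay at 147 CPM in both shNC 2 and shANP32B 1, and only shNC 1 stood above. Without shNC 2, which leaves 1 control library, PFKP stood at -0.41.

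Aldolase cleaves the 6-carbon sugar. ALDOA, the main form of blood cells, was read at 1394 and 1312 CPM in shNC against 945 and 896 CPM in shANP32B, log2 fold change -0.56 ± 0.090 (SE), adjusted p = 0.00113. ALDOC, the brain-type form, was read at 260.0 and 175 CPM in shNC against 96 and 89.7 CPM in shANP32B, log2 fold change -1.23 ± 0.16 (SE), adjusted p = 2.02e-04. That was the largest fall among the 17 enzymes, a fold of 2.34 (95% interval 1.86 to 2.96). TPI1, which interconverts the 2 triose phosphates, was read at 453 and 488 CPM in shNC against 455 and 419.7 CPM in shANP32B and did not pass (log2 fold change -0.11, 95% interval -0.32 to 0.11), its groups overlapping.

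From GAPDH to PGAM1 every enzyme fell, and the 2 controls lay close together. GAPDH, which oxidizes the triose phosphate, was read at 3988 and 4394 CPM in shNC against 2648 and 2529 CPM in shANP32B, log2 fold change -0.70 ± 0.083 (SE), adjusted p = 1.25e-04. PGK1, the first ATP-yielding step, was read at 718 and 663 CPM in shNC against 324 and 337 CPM in shANP32B, log2 fold change -1.06 ± 0.10 (SE), adjusted p = 1.50e-05. PGAM1, the mutase that follows, was read at 136 and 139.7 CPM in shNC against 94.5 and 80.4 CPM in shANP32B, log2 fold change -0.65 ± 0.12 (SE), adjusted p = 0.00244.

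Enolase makes phosphoenolpyruvate. ENO1 was read at 2440.2 and 2495 CPM in shNC against 1817 and 1623 CPM in shANP32B, log2 fold change -0.52 ± 0.087 (SE), adjusted p = 0.00145. ENO2, the neuronal form, was read at 139 and 73.5 CPM in shNC against 57.8 and 42.2 CPM in shANP32B, log2 fold change -1.09 ± 0.23 (SE), adjusted p = 0.00608. The first shNC library held 1.89 times the ENO2 level of the second, while ENO1 hardly differed between them. DESeq2 did not call ENO2 (adjusted p = 0.113).

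Pyruvate kinase PKM and lactate dehydrogenase end the pathway. PKM was read at 1719 and 1900.1 CPM in shNC against 1019.5 and 1009.9 CPM in shANP32B, log2 fold change -0.83 ± 0.090 (SE), adjusted p = 5.20e-05. LDHA, whose subunit favors making lactate, was read at 981 and 872 CPM in shNC against 500.4 and 428 CPM in shANP32B, log2 fold change -1.0 ± 0.11 (SE), adjusted p = 5.07e-05. LDHB, whose subunit favors the reverse reaction, was read at 794 and 795 CPM in shNC against 784 and 744 CPM in shANP32B with a log2 fold change of -0.056 and a 95% interval of -0.25 to 0.14. The LDHA interval, -1.23 to -0.77, did not meet that of LDHB, and a difference between the 2 genes was not itself tested.

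Of the 17 enzymes, 12 fell and 0 rose, and PFKL, PFKM, PFKP, TPI1 and LDHB did not pass, with a median of -0.65 over the 17. Together the 17 took 1.5% (95% Wilson interval 1.49 to 1.5) and 1.48% (1.47 to 1.48) of all counts in shNC against 1.05% (1.04 to 1.05) and 0.975% (0.971 to 0.979) in shANP32B, intervals that cover counting error only. Pseudogene rows of the human tables named after a member held few counts beside it, at most 6.76% (EGLN1) and among the enzymes at most 3.80% (PGAM1). The handling of reads shared with such copies is not known from the labels, so levels of GAPDH, PGK1, LDHA, ENO1, PGAM1 and TPI1, which have processed copies, are uncertain, as is that of SLC2A3, which has the near-identical paralog SLC2A14.

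Of the 3 flux regulators 2 fell and 0 rose. PFKFB4, which makes or removes the activator fructose-2,6-bisphosphate, was read at 106 and 53.3 CPM in shNC against 35.2 and 25.5 CPM in shANP32B, log2 fold change -1.39 ± 0.25 (SE), adjusted p = 0.00215. PFKFB3, a strongly activating relative, was read at 69.8 and 43.9 CPM in shNC against 42.2 and 35.9 CPM in shANP32B and had a log2 fold change of -0.54 that did not pass (adjusted p = 0.0629). It passed with DESeq2 (adjusted p = 0.042) and without the count filter (adjusted p = 0.0489). PFKFB3 stood at -0.17 without shNC 1 and -0.85 without shNC 2, each resting on 1 control library. PDK1, the kinase that shuts pyruvate out of the mitochondrial cycle, was read at 63.5 and 49.3 CPM in shNC against 39 and 36.5 CPM in shANP32B, log2 fold change -0.58 ± 0.15 (SE), adjusted p = 0.0163. Its call was lost without shNC 1 (adjusted p = 0.0555) and without shANP32B 2 (adjusted p = 0.0951).

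Among the 9 HIF targets of other function 6 fell and 0 rose, with a median of -1.15. NDUFA4L2, a mitochondrial protein induced by HIF, was read at 11.7 and 10.7 CPM in shNC against 0.463 and 1.61 CPM in shANP32B, which rest on 327, 262, 12 and 40 counts. The log2 fold change of -3.43, SE 0.41, was the largest of the module (adjusted p = 1.37e-04). NDRG1, a hypoxia- and stress-induced gene of differentiation, was read at 600.1 and 287 CPM in shNC against 103 and 106 CPM in shANP32B, log2 fold change -2.08 ± 0.24 (SE), adjusted p = 7.91e-05. The shNC libraries differed from each other more in NDRG1 than in NDUFA4L2. In both genes both shANP32B libraries lay below both shNC libraries, as in 28.9% of all genes tested.

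VEGFA, the growth factor of blood vessels, was read at 596 and 413 CPM in shNC against 242 and 209.9 CPM in shANP32B, log2 fold change -1.16 ± 0.15 (SE), adjusted p = 2.02e-04. P4HA1, a subunit of the collagen prolyl hydroxylase, was read at 165 and 85.6 CPM in shNC against 62.9 and 50.7 CPM in shANP32B, log2 fold change -1.15 ± 0.22 (SE), adjusted p = 0.00396, a call that DESeq2 did not make (adjusted p = 0.0797). The mitophagy receptor gene BNIP3 was read at 192 and 123 CPM in shNC against 84.5 and 57 CPM in shANP32B, log2 fold change -1.15 ± 0.20 (SE), adjusted p = 0.0018. The mouse promoters of Bnip3 and P4ha1 are among those printed above. The related receptor gene BNIP3L was read at 402 and 339 CPM in shNC against 284 and 299 CPM in shANP32B and fell by 0.35 on the log2 scale (adjusted p = 0.0446). The BNIP3L call was lost without shNC 1, without either shANP32B library and with scaling by library totals (adjusted p = 0.118, 0.247, 0.13 and 0.088).

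The other 3 HIF targets did not pass. ANKRD37, a small ankyrin-repeat protein, was read at 7.55 and 2.81 CPM in shNC against 3.24 and 2.26 CPM in shANP32B, and ADM, the vessel-dilating peptide adrenomedullin, at 2.65 and 0.976 CPM in shNC against 0.849 and 1.53 CPM in shANP32B. In both, shNC 1 alone stood high and shNC 2 lay among the shANP32B libraries. KDM3A, a histone H3 lysine 9 demethylase, was read at 131 and 102 CPM in shNC against 122 and 114 CPM in shANP32B, with a log2 fold change of 0.012 (95% interval -0.27 to 0.29) that turned to -0.17 without shNC 2 and -0.037 without shANP32B 1. Without shNC 1 the ADM value of -0.61 turned to 0.28, and that of ANKRD37 moved from -0.92 to -0.033.

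Of the genes of HIF and its removal, HIF1A and VHL did not pass and EPAS1 rose. HIF1A, the main alpha subunit, was read at 240.4 and 242 CPM in shNC against 225 and 253 CPM in shANP32B, with a log2 fold change of -0.013 (95% interval -0.24 to 0.22, turning to 0.043 with library totals and 0.066 without shANP32B 1). EPAS1, which encodes the second alpha subunit HIF-2 alpha, was the 1 member that rose. It was read at 22.4 and 20.7 CPM in shNC against 33.7 and 35.5 CPM in shANP32B. Both shANP32B libraries lay above both controls, as in 29.5% of all genes tested. The log2 fold change was 0.68 ± 0.15 (SE), adjusted p = 0.00657. That call was lost without shANP32B 2 (adjusted p = 0.0709). VHL, which marks hydroxylated HIF for destruction, was read at 109 and 127 CPM in shNC against 124 and 139 CPM in shANP32B and did not pass (log2 fold change 0.16, 95% interval -0.10 to 0.42). HIF is set mainly through protein stability, which transcript counts do not measure.

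The prolyl hydroxylases EGLN1 and EGLN3 sense oxygen and are themselves HIF targets. EGLN1 was read at 62.3 and 45.6 CPM in shNC against 38.3 and 33 CPM in shANP32B, log2 fold change -0.60 ± 0.16 (SE), adjusted p = 0.0214, a call lost without shNC 1 (adjusted p = 0.0894) and without shANP32B 2 (adjusted p = 0.134). EGLN3 was read at 30.6 and 15.3 CPM in shNC against 13.7 and 15.2 CPM in shANP32B, where shNC 2 was level with the shANP32B libraries. Its log2 fold change of -0.67 did not pass (adjusted p = 0.091). The value was -0.089 without shNC 1 and -1.09 without shNC 2, each resting on 1 control library.

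The 2 control libraries split the module. In 11 of the 36 members shNC 1 held over 1.5 times the level of shNC 2, against 11.9% of all genes tested. These were HK2, ENO2, SLC2A3, PFKFB3, PFKFB4, BNIP3, NDRG1, ADM, ANKRD37, P4HA1 and EGLN3, with ratios from 1.52 (HK2) to 2.71 (ADM). For the 9 HIF targets of other function the median ratio of shNC 1 to shNC 2 was 1.57, and for the 17 enzymes it was 1.06. GAPDH, PGAM1, ENO1, PKM, TPI1, PFKL, LDHB and HK1 differed by less than 12% between the controls. So did ALDOA, PGK1, HIF1A, EPAS1 and, of the HIF targets of other function, NDUFA4L2.

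Without shNC 1, 20 of the 23 falls remained and no other member was called lower, where 9.92% of all genes tested were. The 20 included all 12 called enzymes and both transporters, with 5 of 6 HIF targets and PFKFB4. Without shNC 2, 27 members were lower, against 12.6% of all genes, the 12 enzymes again among them. In both fits EPAS1 was the 1 member higher, against 8.73% and 10.2% of all genes. Without shANP32B 1 the counts were 22 lower and 1 higher, where 5.12% and 4.12% of all genes were, and without shANP32B 2 they were 20 lower and 0 higher, where 4.83% and 3.23% were. The median of the 9 HIF targets moved from -1.15 to -0.60 without shNC 1 and to -1.45 without shNC 2, while that of the 17 enzymes was -0.54 and -0.63. NDUFA4L2 stood at -3.37 and PGK1 at -1.01 without shNC 1, close to their values with all libraries, whereas HK2 moved to -0.49, ENO2 to -0.56, SLC2A3 to -0.49, PFKFB4 to -0.82, P4HA1 to -0.60 and NDRG1 to -1.46, all still past the threshold. Each of these fits leaves 1 library in a group, assumed to vary like the pair of the other group. Its p-values hold no spread within the group left with 1 library.

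**Figure D2:**
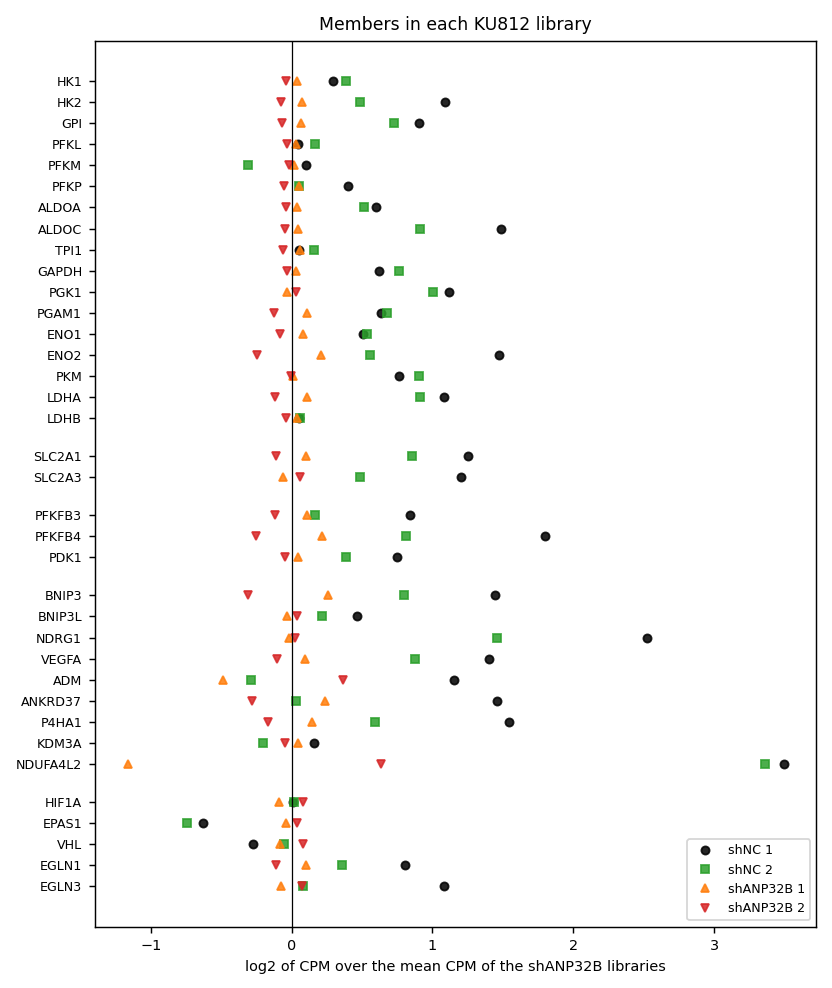
CPM of each member in each of the 4 KU812 libraries, as log2 over the mean CPM of the 2 shANP32B libraries (x axis, 0 is that mean). Black circles are shNC 1, green squares shNC 2, orange upward triangles shANP32B 1 and red downward triangles shANP32B 2. The 2 controls lie together in GAPDH, PGK1, PGAM1, ENO1 and PKM and apart in ENO2, PFKFB4, NDRG1, ANKRD37, P4HA1 and EGLN3.

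The related genes are given as lists, to be read beside the 9.06% of all genes tested that fell, the 2.21% that fell at least 2-fold and the 7.53% that rose. These lists too were chosen with earlier results of these data known, so their shares are not independent tests. Of 38 further HIF targets tested 18 fell and 1 rose, with a median of -0.55, and 10 fell at least 2-fold. CA9, a carbonic anhydrase of the cell surface, was read at 23.1 and 21.3 CPM in shNC against 1.2 and 2.06 CPM in shANP32B, with a log2 fold change of -3.77, and the chemokine receptor gene CXCR4 at 11.4 and 10.8 CPM in shNC against 0.926 and 0.887 CPM in shANP32B, with one of -3.61. Both had close controls, like NDUFA4L2. DDIT4, an inhibitor of mTOR signaling, fell by 1.54 on the log2 scale, and GBE1, the glycogen branching enzyme, by 1.61. The adjusted p of these 4 lay between 1.73e-06 and 5.92e-05. The 1 that rose, HMOX1, heme oxygenase, was named after its value was seen and stood at 0.76 on the log2 scale (adjusted p = 0.0368).

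Of 13 other glycolysis isoenzymes and gluconeogenic genes 1 fell and 0 rose (median 0.076), a share near that of all genes. The 1 was PCK2, the mitochondrial PEP carboxykinase, at -0.59, a call lost without shANP32B 1 (adjusted p = 0.0821). Of 17 genes of lactate and pyruvate handling 1 fell and 2 rose (median -0.062). The pyruvate dehydrogenase kinase gene PDK3 fell by 0.62 and the mitochondrial pyruvate carrier gene MPC1 rose by 0.47 on the log2 scale, and the MPC1 call was lost without either shANP32B library (adjusted p = 0.134 and 0.251). PDK4 was called higher from few counts, 8 and 0 for shNC against 25 and 38 for shANP32B. Its call was lost without shNC 2 (adjusted p = 0.079) and without shANP32B 2 (adjusted p = 0.187).

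Of 8 genes of the pentose phosphate pathway, which branches from glucose-6-phosphate to make NADPH and ribose, 3 fell and 1 rose (median -0.14). The transketolase gene TKT stood at -0.48, the dehydrogenase gene PGD at -0.39 and the epimerase gene RPE at -0.53, while the lactonase gene PGLS stood at 0.57. The calls for PGD and PGLS were lost without shANP32B 1 (adjusted p = 0.0638 and 0.097). All 4 calls were lost without shANP32B 2 (adjusted p from 0.0508 to 0.3). Of 12 glycogen and hexose-phosphate genes 3 fell and 0 rose (median -0.25), GBE1 together with the liver phosphorylase gene PYGL (-0.65) and the phosphorylase kinase gene PHKA2 (-0.62), of which PYGL and PHKA2 lost their calls without shNC 1 (adjusted p = 0.0709 and 0.0571) and without shANP32B 2 (adjusted p = 0.102 and 0.248).

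In the tricarboxylic acid cycle 2 of 16 genes fell and 0 rose (median -0.15), and of 14 further genes of oxygen sensing 2 fell and 0 rose (median -0.14), both near the share of all genes that fell and no result about the lists. Those of the cycle were the citrate synthase gene CS, read at 217 and 228 CPM in shNC against 145 and 137 CPM in shANP32B (-0.66), and SUCLG2, a subunit of succinyl-CoA ligase (-0.76). Of oxygen sensing, RBX1, a subunit of the VHL ubiquitin ligase, fell by 0.76 on the log2 scale. HIF3A, another alpha subunit gene, was read at 6.44 and 1.99 CPM in shNC against 1.12 and 0.605 CPM in shANP32B, with a log2 fold change of -2.29, and lost its call without shNC 1 (adjusted p = 0.184).

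**Figure D3:**
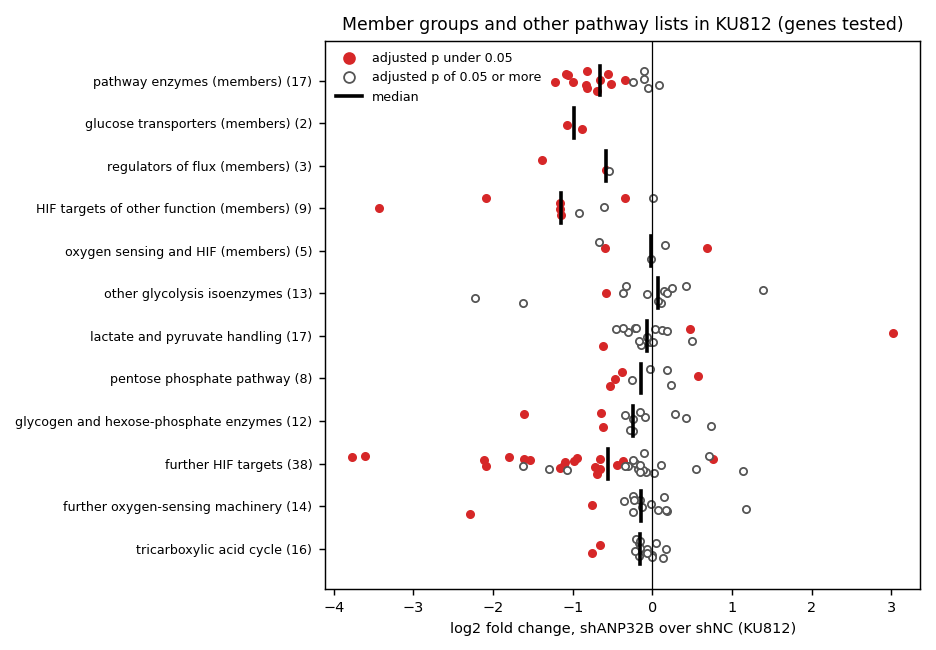
Log2 fold change in KU812 (x axis) of every tested gene of the 5 member groups and of the 7 lists of related genes, with the number of genes tested in brackets. Filled red points had an adjusted p under 0.05 and black bars are medians. The transporters, enzymes and both sets of HIF targets have medians between -0.55 and -1.15, and the other lists between -0.25 and 0.076, with flux regulators at -0.58 and oxygen sensing at -0.013.

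The LSK comparison asks the same of mouse stem and progenitor cells labeled as Anp32b knockout, in which part of the Anp32b reads remained. No member was called. Of 34 members tested 0 passed by the same test, and neither did any of all 14598 genes tested (0% in either direction). Anp32b itself, at a log2 fold change of -1.76, was among the genes that did not pass (adjusted p = 0.148). The WT pair differed most of the replicate pairs (chi-square per degree of freedom 47.7). The absence of calls therefore does not show the absence of a change. Further, 0 members had an unadjusted p under 0.05, against 4.5% of all genes (657 genes). DESeq2 called 10 genes lower and 5 higher and limma-voom 1 lower, with 0 members in either. The median log2 fold change was -0.026 over the members, 0.053 over the 17 enzymes and -0.094 over the 7 HIF targets of other function. The enzymes' median turned to -0.076 without WT 2 and -0.0064 without KO 2, and that of the HIF targets to 0.17 without WT 1. Beside these values, neutrophil and monocyte markers (9 of 9 listed) summed to 1379.7 and 1337 CPM in WT against 1029 and 913 CPM in KO, and stromal and endothelial markers (7 of 8 listed) to 204 and 171 CPM in WT against 149.7 and 133 CPM in KO. Their part in the values of the members was not tested.

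Of the 12 enzymes that fell in KU812, 9 overlapped between the LSK groups, while Hk1, Aldoc and Pgam1 were higher in both KO libraries than in both WT libraries, as were 17.7% of all genes tested, while 15.6% were lower in both. Ldha was read at 562 and 454 CPM in WT against 505 and 554 CPM in KO, with a log2 fold change of 0.060 and a 95% interval of -0.33 to 0.45. Pkm was read at 1202 and 941 CPM in WT against 1115 and 1108 CPM in KO (0.053, 95% interval -0.36 to 0.47), and Gpi1 at 946 and 704 CPM in WT against 734 and 820.5 CPM in KO (-0.086, 95% interval -0.53 to 0.36). In all 3 genes WT 1 was the highest library and WT 2 the lowest, so the WT pair spanned the KO pair. A fall of the size seen for LDHA in KU812 lies outside the Ldha interval.

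Pgk1 was read at 76.7 and 46.6 CPM in WT against 44.3 and 52 CPM in KO, high in WT 1 alone, with a log2 fold change of -0.36 that turned to 0.047 without WT 1. The same held for Vegfa, read at 279 and 142 CPM in WT against 181 and 177 CPM in KO (-0.23, and 0.34 without WT 1). Ndrg1 was low in WT 1, with 65.5 and 91 CPM in WT against 111 and 94.1 CPM in KO, and both KO libraries lay above both WT libraries (0.39, adjusted p = 0.986). Without WT 2 these 3 genes passed the test, Pgk1 and Vegfa as lower at -0.67 and -0.64 and Ndrg1 as higher at 0.64, against 2.96% of all genes lower and 2.45% higher in that fit. Without WT 1, KO 1 or KO 2, 0 members were called, where 0.146% (lower) and 0.0926% (higher), 0.00651% and 0.026%, and 0% of all genes were. With WT 2 left out the WT group is WT 1 alone, assumed to vary like the KO pair.

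Both KO libraries lay above both WT libraries in 8 of 34 members and below them in 3, where 17.7% and 15.6% of all genes did. The 8 were Hk1, Pfkm, Aldoc, Pgam1, Ldhb, Pdk1, Ndrg1 and Egln1, and the 3 were Pfkp, Slc2a3 and Bnip3. Aldoc was read at 8.19 and 11.2 CPM in WT against 12.1 and 17 CPM in KO (0.60, 95% interval -0.039 to 1.23), and Ldhb at 72.1 and 71.9 CPM in WT against 80.5 and 88.7 CPM in KO (0.23, 95% interval -0.069 to 0.53). Slc2a3 was read at 175 and 156 CPM in WT against 148 and 133 CPM in KO (-0.24, 95% interval -0.58 to 0.10). The remaining members had log2 fold changes between -0.48 (Epas1, from 4 to 18 counts a library) and 0.49 (Ankrd37). Of the 7 related lists, 0 genes passed in any, and their medians lay between -0.05 and 0.098. At an unadjusted p under 0.05 there were 3 such genes, Pygm (muscle glycogen phosphorylase, log2 fold change 0.47), the HIF target Cxcr4, at 186 and 69 CPM in WT against 66.6 and 54 CPM in KO, and Mpc2, a pyruvate carrier subunit, at 21.4 and 24 CPM in WT against 31.5 and 30.6 CPM in KO. The log2 fold change of Cxcr4 was -1.09 with all libraries and -0.20 without WT 1. Without WT 2, Cxcr4 passed at -1.63 (adjusted p = 5.68e-05) and the lactonase gene Pgls at 0.45 (adjusted p = 0.0492). The other genes with the smallest p of their lists, Ldhd, Fbp1, Dlat, Pgls, H6pd, Phka2, Tfrc, Siah2, Egln2, Idh3g and Sucla2, had log2 fold changes from -0.46 (Fbp1) to 0.46 (Ldhd).

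Isoenzyme use in LSK cells could be read per length, as CPM per kilobase of exons (union of GENCODE M21 exons on GRCm38, which may not be the annotation behind the counts). Pkm stood highest of the pathway enzymes measured so, at 188 to 240.3 over the 4 libraries, followed by Ldha at 137 to 169.9, Gpi1 at 109 to 147 and Tpi1 at 99.6 to 125, neighbours whose ranges overlapped except Pkm and Ldha. Hk1 stood at 40.6 to 45.8 and Hk2 at 16.7 to 19, Ldhb at 45.8 to 56.5, and Eno1 at 36.7 to 53.3 against 0.297 to 0.83 for Eno2. Pfkl and Pfkm did not differ beyond their spread by this measure (21.2 to 25 and 18.9 to 24.7), and Pfkp was lower (6.36 to 8.37). The exon lengths taken were 13401 bases for Pfkp, 6675 for Pfkl and 3340 for Pfkm. By CPM Pfkp stood at 85.3 to 112 and Pfkm at 63.1 to 82.5, Pfkp above in each library. The order of these 2 genes therefore rests on the lengths taken. Gapdh stood at 17.7 to 28.7 and Pgk1 at 19.8 to 34.2, and as genes with many processed copies in mouse their levels are uncertain. Aldoa was left out because its symbol has 2 gene entries in that annotation.

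The difference between the experiments was tested in a joint fit of the 8 libraries with an interaction term, the log2 change in KU812 less that in LSK cells. Of 34 members tested 4 were lower in KU812 than in LSK cells and 0 higher, against 1.33% and 0.891% of the 10772 genes tested (2.22% in either direction). NDRG1 differed by -2.46, SE 0.40 (adjusted p = 0.0132), ALDOC by -1.82, SE 0.32 (adjusted p = 0.0175), LDHA by -1.04, SE 0.21 (adjusted p = 0.0295), and SLC2A1 by -1.02, SE 0.22 (adjusted p = 0.0409, edgeR for all 4). All 4 calls were lost without shANP32B 2 or without KO 2, and more members were called without shNC 2, WT 1 or WT 2. The number of genes called over all genes changed with the library left out too. The 1 member called was NDRG1 without shNC 1 or shANP32B 1 and ALDOC without KO 1. Leaving out WT 1 ended the call for SLC2A1 (adjusted p = 0.0516). PGAM1 and PKM lay just outside the threshold (adjusted p = 0.0532 and 0.0553). Species, cell type and kind of perturbation differ together between the experiments and cannot be told apart.

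**Figure D4:**
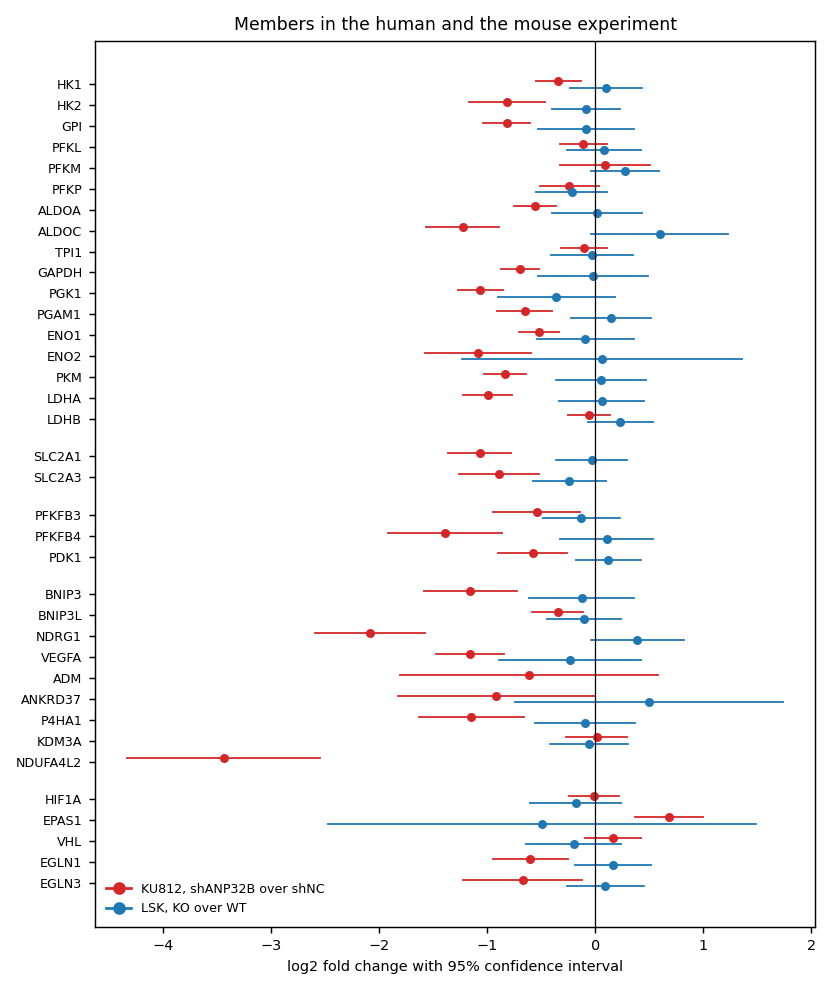
Log2 fold change with 95% confidence interval (x axis) of each member in KU812 (red, shANP32B over shNC) and in LSK cells (blue, KO over WT), each from its own edgeR fit of 2 against 2 libraries. Most red points lie left of 0, and the blue intervals all include 0. ADM and NDUFA4L2 have no mouse value.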

How the data were processed

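RNA came from Trizol extraction and entered Illumina libraries, per the labels' protocols. HISAT2, TopHat, Cufflinks and DESeq, with GRCm38 and GRCh38, stand in the submitters' processing notes, with no role given. No source used here names the counting tool, its annotation or its use of strand. Reads of overlapping and antisense genes may therefore be mixed. The authors deposited raw whole-number counts per gene symbol, in a table for each library. All genes in the tables reach a sum of 10 counts or more within their experiment. The limit that a count of 0 allows, 3 counts, was 0.106 to 0.123 CPM in KU812 and 0.191 to 0.284 CPM in LSK cells.

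Each experiment was fitted by itself on the counts with edgeR 4.0.16 in R 4.3.3 (filterByExpr, TMM scaling, quasi-likelihood test, Benjamini-Hochberg adjustment over all genes tested, threshold 0.05). The interaction started from 10856 symbols equal in upper case, with Gpi1 for GPI, and was fitted on the 10772 that passed the count filter. The SE was derived from the coefficient and its F statistic. The alternatives were DESeq2 1.42.0, limma-voom (limma 3.58.1) with quality weights, other scalings, no filter, each library left out and a replicate block. The test was tried on simulated counts first. Chi-square per degree of freedom between replicates was 7.70 to 47.7, so each pair differed by more than sampling noise. All 36 members are named. Of the related lists up to 4 called genes with the smallest p are named, or up to 2 where none was called, and other names are said to be chosen later. Members and lists were chosen with earlier results of these data known. Promoters were matched by symbol for 31 of 36 members.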

Additional observations from a re-analysis of the deposited data

Results flagged for a closer look

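The change differed between the 2 experiments in 4 members, by a test of the difference itself (edgeR interaction, adjusted p under 0.05). The log2 change in KU812 less that in LSK cells was -1.82 for ALDOC, -1.04 for LDHA, -1.02 for SLC2A1 and -2.46 for NDRG1. In KU812 both shANP32B libraries lay below both shNC libraries in all 4 genes, as in 28.9% of all genes tested. The 4 were picked by a test on these same libraries, so this adds no separate evidence. The calls for NDRG1, ALDOC, LDHA and SLC2A1 were all lost without shANP32B 2 or KO 2 (adjusted p from 0.0565 to 0.176). In LSK cells the groups overlapped for Ldha and Slc2a1. For Aldoc and Ndrg1 both KO libraries lay above both WT libraries, as in 17.7% of all genes tested. Groups of 2 libraries are too small to look for single outlying libraries within a group.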

How the results depend on the processing

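Another scaling, no count filter, DESeq2, limma-voom and the replicate block left the number of members lower in KU812 between 21 and 25, and their medians within the spread between libraries. Leaving out 1 library at a time gave 847 to 2233 genes lower, 566 to 1814 higher and 20 to 27 members lower in KU812, with 0 to 1 members higher, a median of -0.73 to -0.54 for the enzymes and -1.45 to -0.60 for HIF targets of other function. It gave ranges of -1.16 to 0.28 for ADM, -0.11 to 0.30 for PFKM, -0.17 to 0.20 for KDM3A and -0.11 to 0.066 for HIF1A. With library totals HIF1A stood at 0.043 in KU812, and in LSK cells Tpi1 stood at 0.016, Gapdh at 0.023 and Slc2a1 at 0.012. In LSK cells, leaving out 1 library gave 0 to 454 genes lower and 0 to 376 higher, 0 to 2 members lower and 0 to 1 higher, and medians of -0.076 to 0.15 for the enzymes and -0.12 to 0.17 for HIF targets. DESeq2 called 10 genes lower and 5 higher there, and limma-voom 1 lower, with Gapdh at 0.018 and Eno2 at -0.14. The LSK members that changed sign when a library was left out ranged as follows on the log2 scale: Gpi1 -0.29 to 0.14, Pfkl -0.041 to 0.19, Aldoa -0.18 to 0.23, Tpi1 -0.19 to 0.14, Gapdh -0.33 to 0.36, Pgk1 -0.67 to 0.047, Eno1 -0.34 to 0.20, Eno2 -0.85 to 0.63, Pkm -0.12 to 0.24, Ldha -0.090 to 0.22, Slc2a1 -0.13 to 0.057, Pfkfb3 -0.27 to 0.015, Pfkfb4 -0.022 to 0.23, Bnip3l -0.24 to 0.050, Vegfa -0.64 to 0.34, Ankrd37 -0.14 to 0.92, P4ha1 -0.32 to 0.18, Kdm3a -0.25 to 0.11, Hif1a -0.42 to 0.094, Epas1 -1.49 to 0.58, Egln3 -0.051 to 0.25. Without 1 library the test of the difference between experiments gave 38 to 719 genes and 0 to 10 members, against 239 and 4. Fits with fewer libraries have fewer residual degrees of freedom, and some of them called more genes than the full fit. The cause of these changes was not tested.

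Replicate numbers are shared between groups, but nothing in the labels says that they pair libraries, and the correlation of same-numbered deviations was 0.151 in KU812 and -0.0749 in LSK cells. With the replicate block KU812 gave 2182 genes lower and 1982 higher and 25 members lower, PFKFB3 and EGLN3 joining. In LSK cells the block gave 7 genes lower, 8 higher and 0 members, with Gapdh at 0.017 and Eno2 at -0.066, and in the interaction 6 members.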
